A study of Mus musculus with 24 samples.

Results

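The 10 genes described here are markers of T cells and of lymphocytes that kill other cells. Cd3e, Cd3g and Trbc2 encode parts of the T cell receptor complex, Cd4, Cd8a and Cd8b1 encode its co-receptors, Gzma and Gzmk encode granule proteases, Nkg7 encodes a granule membrane protein and Ccl5 encodes a chemokine. They were taken by symbol from the 55421 genes of the count table, and each symbol named 1 gene. PolyA RNA was sequenced from hepatocytes isolated by liver perfusion from 24 male mice, in 4 groups of 6, which are named by age and diet (in this order throughout: young ND, young HFD, then old ND, then old HFD). By the labels, young mice were 6 months old and C57BL/6N and old mice were 24 months old and C57BL/6J, so that age and substrain cannot be told apart. They were fed a normal diet (ND) or the diet 58y1 with 60% of energy from fat (HFD) for 9 weeks, and the labels name no transgene and no drug. The libraries fell in 2 batches, with 3 mice of each group in each batch except for old ND, which had 2 mice in batch 1 and 4 in batch 2.

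T cells recognise peptides through a receptor whose variable chains sit in the membrane with the invariant CD3 chains, and CD4 or CD8 reads which class of MHC molecule presents the peptide. CD8 T cells and natural killer cells kill by releasing granules that hold granzymes, and activated or memory cells of both kinds secrete CCL5. The healthy liver holds resident lymphocytes in its sinusoids, and hepatocytes are not a known source of CD3 or CD8. A bulk library holds the RNA of all cells that came through the hepatocyte preparation, so that fewer cells of a type and less RNA per cell cannot be told apart.

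The libraries held between 9200332 and 22185069 reads on genes, with old HFD the shallowest group (9200332 to 13517632) and at least 13692834 in each other library. The 9 hepatocyte markers of a list summed to between 44825 and 158859 CPM (per-million counts, scaled to the effective library size) in each mouse, and the 10 lymphocyte genes summed to between 0.464 and 14.7 CPM. Each lymphocyte gene was thus counted on few reads: of 240 values (10 genes in 24 mice), 81 were 0 reads and 56 were 10 reads or more. In the low-count filter, which asks for about 10 reads in as many mice as a group holds, 6 of the 10 genes passed (Cd3g, Trbc2, Cd4, Cd8a, Nkg7 and Ccl5). A gene can pass that filter through the groups in which it is high, so the 6 are not a neutral sample of the 10. Cd3e, Cd8b1, Gzma and Gzmk did not pass and are given by their reads. The library of old ND replicate 4 had the lowest hepatocyte marker sum of all mice, and old HFD replicate 2 had the highest Nkg7 and Trbc2, and results without both are given below.

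Among the genes of the receptor complex, the 2 that passed the low-count filter were higher in old HFD mice than in those of young ND, and Cd3g also differed between old ND and young ND. Cd3g, the gamma chain of CD3, had 0 to 0.161 CPM in young ND mice (median 0.0265) and 0 to 0.593 in young mice fed HFD (median 0.284), against 0.143 to 1.55 in old ND mice (median 0.323) and 0.537 to 2.66 in old mice fed HFD (median 0.827). All 6 old HFD mice and 5 of 6 old ND mice were above every young ND mouse, while the ranges of old ND and young HFD overlapped. The fitted log2 fold change of Cd3g was 3.53 (SE 0.86) for old ND over young ND, with an adjusted p of 0.0128 in edgeR's quasi-likelihood test. It was 4.64 (SE 0.85, adjusted p = 0.000639, edgeR) for old HFD over young ND. For old HFD over young HFD it was 2.34 (SE 0.70, adjusted p = 0.0719, edgeR), which missed the threshold of 0.05.

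Cd3e, the epsilon chain of the same complex, lies 18308 bases from Cd3g on chromosome 9 of mm10 (44998740 to 45009627, minus strand), with Cd3g at 44969572 to 44980431. It had 4 reads in young mice on ND and 10 on HFD, and 20 in old mice on ND and 19 on HFD. In old ND 18 of its reads came from replicates 3 and 4, and in old HFD 16 came from replicates 4 and 6, all in batch 2. Cd3e shares 135 of its exon bases with the antisense gene Gm48719, and the strand setting of the counting is not stated. Together Cd3e and Cd3g held 9, 37, 69 and 122 reads in the 4 groups, in the order given above.

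Trbc2, the second constant region of the receptor's beta chain, is on chromosome 6 (41546730 to 41548352, plus strand). It had 0 to 0.159 CPM in young ND mice (median 0.0535) and 0 to 0.804 in young mice fed HFD (median 0.0890), against 0.0612 to 0.847 in old ND mice (median 0.370) and 0.322 to 2.00 in old mice fed HFD (median 0.594). All 6 old HFD mice and 3 of 6 old ND mice were above every young ND mouse. Its log2 fold change was 3.56 (SE 0.99, adjusted p = 0.0101, edgeR) for old HFD over young ND, and 2.46 (SE 1.0, adjusted p = 0.139, edgeR) for old ND over young ND.

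How far Trbc2 can be read apart from Trbc1, the first constant region 6848 bases away, is limited by their sequences, which are shown here because they decide where a read can be placed. The first exons are 375 bases long and differ at 1 base, C260A, where the base of Trbc1 stands first, then its position from the first base of the exon, then the base of Trbc2. The next 100 bases, from 376 to 475 of the spliced transcript, differ at 13. The first pair of sequences covers positions 230 to 289 and the second pair positions 376 to 475, from the GENCODE transcripts of GRCm38, with differing bases in capitals.
Trbc1 exon 1: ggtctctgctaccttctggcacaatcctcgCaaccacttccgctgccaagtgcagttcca
Trbc2 exon 1: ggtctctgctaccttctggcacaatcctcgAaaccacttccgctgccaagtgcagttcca
Trbc1 after exon 1: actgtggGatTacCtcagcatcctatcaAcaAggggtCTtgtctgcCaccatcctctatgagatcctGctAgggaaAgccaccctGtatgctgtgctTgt
Trbc2 after exon 1: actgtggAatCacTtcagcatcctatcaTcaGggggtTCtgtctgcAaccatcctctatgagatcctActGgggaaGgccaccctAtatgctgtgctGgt
The first exon makes up 54.2% of the Trbc2 exon bases, and reads within it that miss the 1 differing base match both genes. The libraries held 96 reads on Trbc1 and 136 on Trbc2 over all mice, so the level of Trbc2 is uncertain by the reads that the 2 genes share.

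The co-receptor genes did not move as 1 group. Cd8a, the alpha chain of CD8, had 2 reads in all 6 young ND mice and 9 in young HFD, all 9 from replicate 1, against 70 in old ND and 67 in old HFD. On the CPM scale young ND ran from 0 to 0.0529, old ND from 0 to 2.33 (median 0.388) and old HFD from 0 to 1.77 (median 0.927). In each old group 5 of 6 mice were above every young ND mouse, and 1 mouse had no read. The pooled count ratio of old ND to young ND was 42.1, with an exact 95% interval of 11.2 to 355, and that of old HFD to young ND was 48.5 (12.9 to 409). These intervals cover counting error alone. Without old ND replicate 3 the first ratio was 20.2 (5.09 to 176), and without young ND replicate 1 or 4, which hold the 2 reads of that group, it was 66.9 or 69.0 and the second 77.1 or 79.6. The fitted log2 fold change was 4.88 (SE 1.34, adjusted p = 0.0228, edgeR) for old ND over young ND and 5.09 (SE 1.33, adjusted p = 0.00718, edgeR) for old HFD over young ND. The first of these calls was lost without old ND replicate 3, which held 43 of the 70 reads (log2 fold change 3.63, adjusted p = 0.105), and without young ND replicate 2, 5 or 6 (adjusted p between 0.0511 and 0.0545).

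Cd8b1, the beta chain that pairs with CD8 alpha on conventional cytotoxic T cells, starts the same stretch of chromosome 6 (71322788 to 71337494), 35932 bases before Cd8a (71373427 to 71379173). It had 3 reads in young mice on ND and 3 on HFD, and 29 in old mice on ND and 17 on HFD. All 6 old ND mice had at least 1 read, with a median of 3.5 and a highest value of 14 in replicate 3, whereas in old HFD 15 of the 17 reads came from replicate 6 and 4 mice had none. The count ratio of old ND to young ND was 11.6 (exact 95% interval 3.61 to 59.7), and that of old HFD to young ND was 8.21 (2.38 to 43.7). All 3 young ND reads were in replicate 6. Without old ND replicate 3 the first ratio was 7.49 (2.12 to 40.4), and without old HFD replicate 6 the second was 1.18 (0.0986 to 10.3).

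Cd4, the co-receptor of helper T cells, had a different order of groups. It had 0.464 to 2.35 CPM in young ND mice (median 1.08) and 0.0606 to 1.07 in young mice fed HFD (median 0.425), against 0.245 to 4.50 in old ND mice (median 0.659) and 0 to 2.16 in old mice fed HFD (median 0.705). No group stood above another: 1 old ND mouse, replicate 3 with 83 reads, was above every young ND mouse, 2 old ND mice were below all of them, and 5 of 6 young HFD mice were below every young ND mouse. Its log2 fold change was 0.03 (SE 0.71, adjusted p = 0.987, edgeR) for old ND over young ND, with a 95% interval of -1.36 to 1.42. For young HFD over young ND it was -1.64 (SE 0.73, adjusted p = 0.19, edgeR), which missed the threshold. Without old ND replicate 3 the value of old ND over young ND was -0.69.

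**Figure D1:**
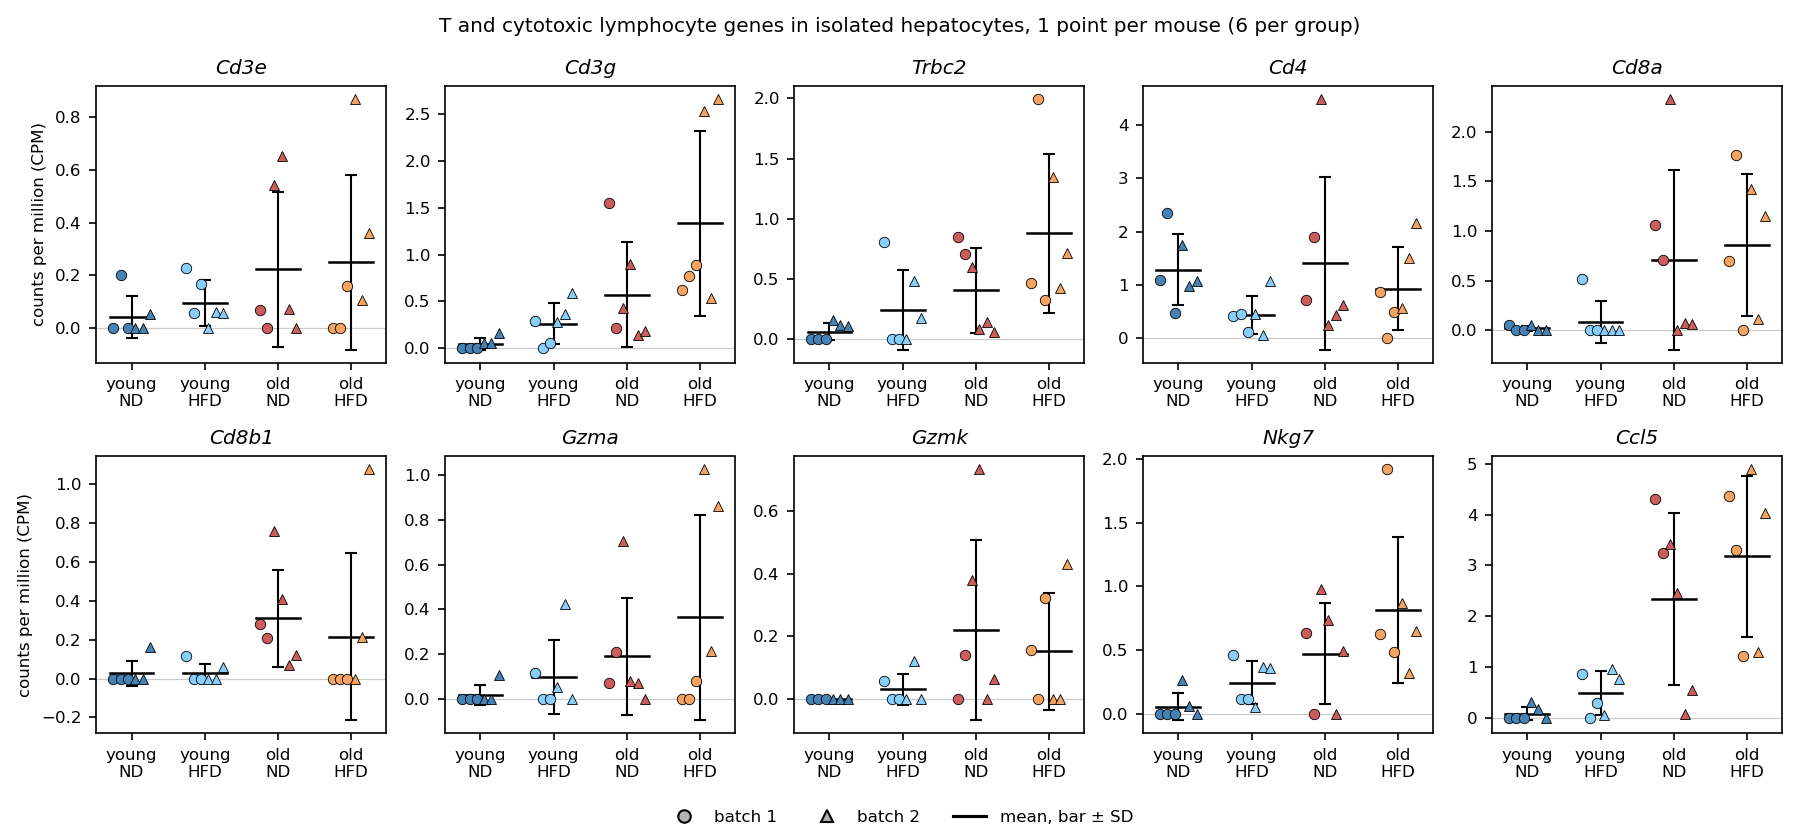
CPM of each of the 10 genes (linear axis, own scale per panel) for every mouse in the 4 groups; circles are batch 1, triangles batch 2, lines the mean and bars ± SD of 6 mice. In all panels but Cd4 the young ND mice lie lowest on average, and the Cd8b1 mean of old HFD rests mostly on replicate 6.

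Of the granule genes, Nkg7 passed the low-count filter and Gzma and Gzmk did not. Nkg7, which marks the cytotoxic granules of T and natural killer cells, had 0 to 0.265 CPM in young mice on ND (median 0) and 0.0560 to 0.460 on HFD (median 0.234), and 0 to 0.977 in old mice on ND (median 0.563) and 0.322 to 1.92 on HFD (median 0.636). All 6 old HFD mice and 4 of 6 old ND mice were above every young ND mouse, and 2 old ND mice had no read. Its log2 fold change was 3.79 (SE 0.94, adjusted p = 0.00527, edgeR) for old HFD over young ND. For old ND over young ND it was 2.90 (SE 0.94, adjusted p = 0.0558, edgeR), just short of the threshold. That comparison passed the threshold in DESeq2 (adjusted p = 0.0305, with 4 members called, against 9.11% of the genes it tested) and without young ND replicate 4, old ND replicate 2 or 5, or old HFD replicate 2 (edgeR adjusted p between 0.0190 and 0.0407).

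Gzma and Gzmk encode granzymes A and K, tryptase-like proteases, and lie 70626 bases apart on chromosome 13 (113093825 to 113100981 and 113171608 to 113225908, minus strand). Gzma had 2 reads in young ND and 10 in young HFD, against 19 in old ND mice and 28 in old mice fed HFD. In old ND 13 of these reads came from replicate 3, and in old HFD 25 came from replicates 4 and 6. The count ratio for Gzma was 11.4 (exact 95% interval 2.76 to 101) for old ND over young ND and 20.3 (5.12 to 176) for old HFD over young ND. Both young ND reads were in replicate 6. Without old ND replicate 3 the first ratio was 4.50 (0.804 to 45.6), and without old HFD replicate 4 the second was 13.2 (3.08 to 119). Gzmk had no read in any young ND mouse and 3 reads in the young HFD group, while old ND mice held 19 and old HFD mice 12. Of the old ND reads 7 were in replicate 3 and 9 in replicate 4, and of the old HFD reads 6 were in replicate 6. Against a floor of 3 reads over the 6 young ND mice (0.0278 CPM), Gzmk was at least 7.62-fold higher in old ND and at least 5.80-fold higher in old HFD. Without old ND replicate 4 the first bound was 4.73, and without old HFD replicate 6 the second was 3.54. When the low-count filter was left out, the edgeR adjusted p for old ND over young ND was 0.0251 for Gzmk and 0.155 for Gzma, and the DESeq2 values were 0.146 and 0.205. Without that filter 5 members were called in old ND over young ND (6.35% of all genes then tested), 3 in old HFD over young HFD (3.82%), 1 in young HFD over young ND (Ccl5, 4.56%) and 7 in old HFD over young ND (14.3%), Gzma and Gzmk among the last.

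Ccl5 encodes a chemokine that attracts T cells and other leukocytes. It had 0 to 0.318 CPM in young mice on ND (median 0) and 0 to 0.970 on HFD (median 0.527), and 0.0715 to 4.31 in old mice on ND (median 2.85) and 1.21 to 4.90 on HFD (median 3.67). Every old HFD mouse was above every young HFD mouse and every young ND mouse, and 5 of 6 old ND mice were above every young ND mouse. In old ND the levels were split, with replicates 1 to 4 between 30 and 63 reads and replicates 5 and 6 at 1 and 9 reads. Its log2 fold change was 4.70 (SE 0.96, adjusted p = 0.00471, edgeR) for old ND over young ND and 5.14 (SE 0.97, adjusted p = 0.000794, edgeR) for old HFD over young ND. For old HFD over young HFD it was 2.7 (SE 0.80, adjusted p = 0.0714, edgeR).

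Divided by exon length, which allows levels of different genes to be compared, Ccl5 had 2.44 ± 1.76 CPM per kilobase in old ND mice (SD, n = 6) and 3.31 ± 1.65 in those of old HFD, ahead of Trbc2 (0.586 ± 0.506 and 1.27 ± 0.953) and Nkg7 (0.517 ± 0.437 and 0.887 ± 0.627). Trbc2 and Nkg7 did not differ beyond their spread in either group. Cd3e was the lowest of the 10 on this scale, with 0.0547 ± 0.0721 in old ND and 0.0612 ± 0.0812 in old HFD. In young ND the order was another one: Cd4 led with 0.318 ± 0.165 CPM per kilobase, followed by Trbc2 with 0.0916 ± 0.104 and Ccl5 with 0.0850 ± 0.140.

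Cd4 therefore made up most of the few reads on the 10 genes in young ND mice and a smaller share in the other groups. Of 173 reads on the 10 genes in young ND, 135 were Cd4, a share of 78% (exact 95% interval 71.1 to 84.0). The share was 21.4% in young HFD (16 to 27.6). Of the old groups, ND mice had 21.9% (18.7 to 25.3) and HFD mice 9.90% (7.77 to 12.4). Reads of a group come from 6 mice, and these intervals cover counting error alone. The other 9 genes held 38, 162, 497 and 619 reads in the same order of groups, whereas CD3 chains held 9 of the young ND reads beside the 135 of Cd4. Which cells the Cd4 reads came from was not tested. Lag3, the neighbour of Cd4 at a distance of 16139 bases, was looked at after these values were seen. It had 165, 98, 118 and 151 reads, a log2 fold change of -0.48 (SE 0.53, adjusted p = 0.645, edgeR) for old ND over young ND and a Pearson correlation with Cd4 of 0.12 over 24 mice after removal of batch means.

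**Figure D2:**
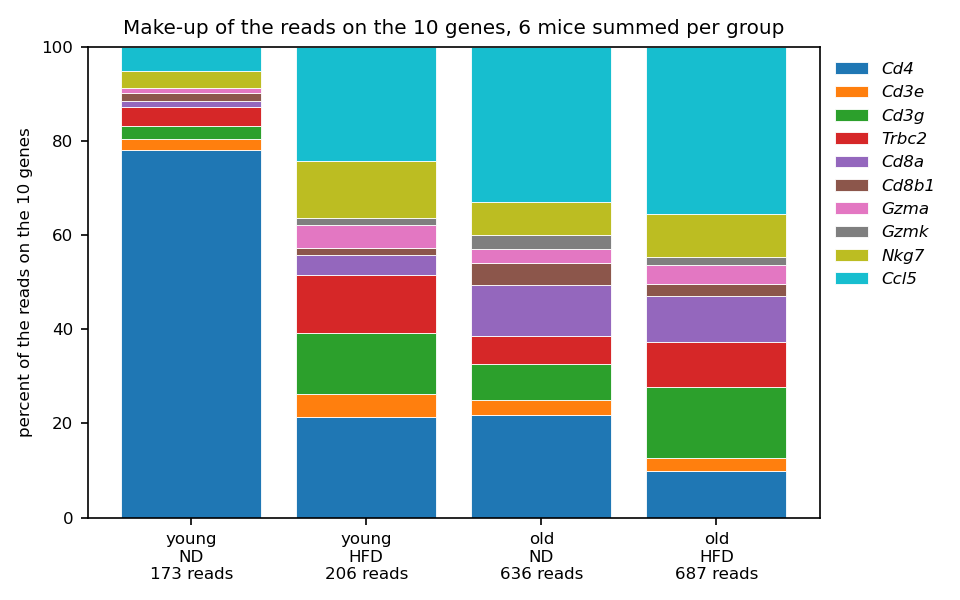
Share of each gene in the reads on the 10 genes (percent, stacked bars), with the reads of 6 mice summed per group and the totals under the bars. Cd4 takes 78% of the 173 reads in young ND and 9.90% of the 687 in old HFD, where Ccl5 is the largest part.

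The comparisons between groups can be set side by side, with the share of all 13583 tested genes that was called in each. For old ND over young ND, 3 of the 6 tested members were called higher (Cd3g, Cd8a and Ccl5) and none lower, and 8.5% of all tested genes were called, 7.26% of them higher and 1.24% lower as shares of the tested genes. For old HFD over young ND, 5 of 6 were called higher, all but Cd4, and 30.2% of all tested genes were called (17.3% higher). In that comparison 4 of the 6 tested members had groups that did not overlap, all with old HFD higher (Cd3g, Trbc2, Nkg7 and Ccl5), against 2.99% of all tested genes. None of the members that failed the filter did. Between old HFD and young HFD 0 members were called by edgeR, with 5 at an unadjusted p under 0.05, and DESeq2 called 2 (Cd3g and Ccl5). The shares of all tested genes were 2.24% called, 21% at an unadjusted p under 0.05 and 5.14% called by DESeq2. In that comparison 1 of the 6 tested members, Ccl5, had groups that did not overlap, against 0.552% of all tested genes.

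The diet comparisons gave no calls among the members at either age in the fit over all mice with the low-count filter, and without that filter Ccl5 was called in young HFD over young ND, as given above. For young HFD over young ND edgeR called 0 of 6, with 4 at an unadjusted p under 0.05, and DESeq2 called 0. Of all tested genes 3.5% were called by edgeR, 21.2% had an unadjusted p under 0.05 and 8.23% were called by DESeq2. The 5 members other than Cd4 had log2 fold changes between 1.73 and 2.44, with adjusted p between 0.131 and 0.578 (edgeR). The value of Cd8a in that range turned to -1.70 without young HFD replicate 1, which held all 9 reads of its group, and was also -1.70 in batch 2 alone. With the mice of these 2 groups only and the same genes tested, Cd3g was called (2.47, adjusted p = 0.0434, edgeR), beside 18.2% of all tested genes. For old HFD over old ND edgeR called 0, with 0 at an unadjusted p under 0.05 and 0 of the 3 members with an adjusted p in DESeq2, beside 3.01%, 22% and 7.92% of tested genes. The log2 fold changes lay between -0.62 (Cd4) and 1.11 (Cd3g). The interval for Ccl5 was -1.0 to 1.88, that for Cd8a -1.65 to 2.07 and that for Cd3g -0.21 to 2.43, so that differences of several fold were not excluded. The interaction of age and diet, tested as a term of the fit, was called for 0 members by edgeR with 0 at an unadjusted p under 0.05 and 0 by DESeq2, beside 0%, 9.18% and 0.0241% of tested genes. Its values ran from -2.0 for Ccl5 to 1.0 for Cd4, and so the diet effect was not shown to differ between ages for any member. The comparisons share mice with each other.

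**Figure D3:**
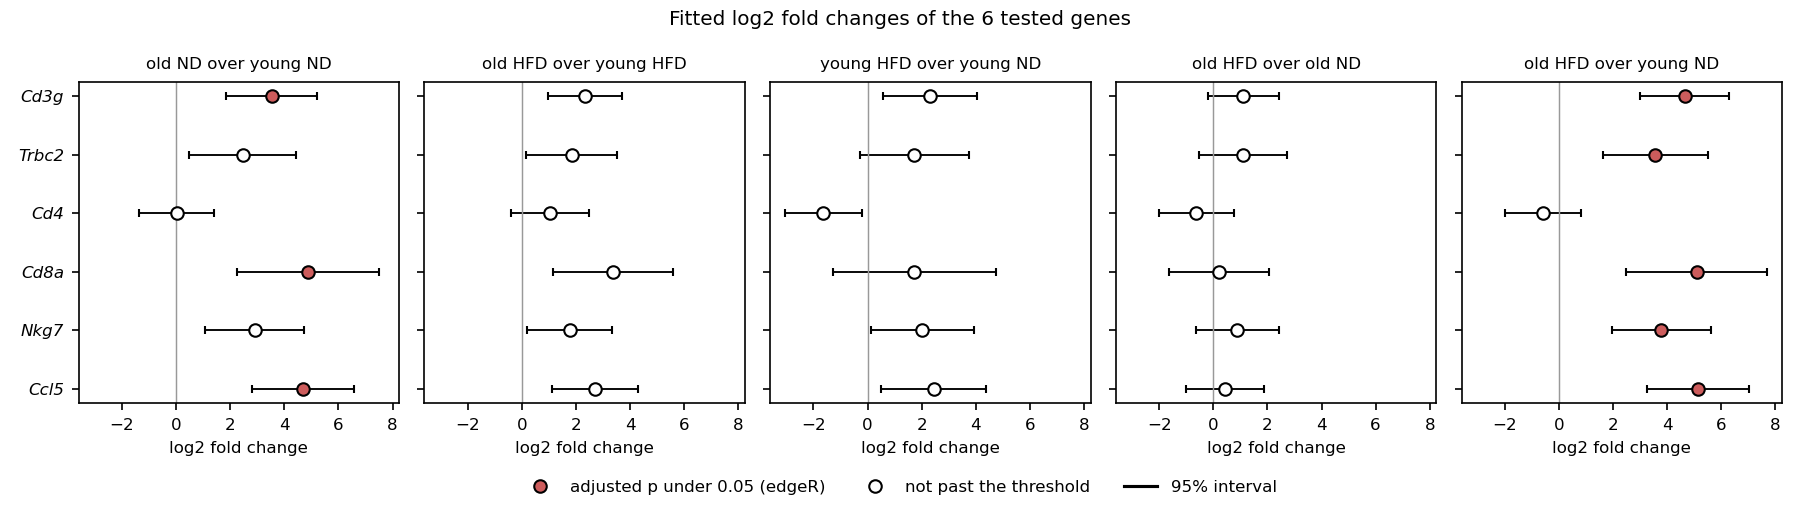
Fitted log2 fold changes of the 6 tested genes in 5 comparisons (horizontal axis, log2 scale), with bars of the 95% interval; filled points passed an adjusted p of 0.05 in edgeR. Filled points are 3 in old ND over young ND and 5 in old HFD over young ND, and the interval of Cd4 holds 0 in each panel except young HFD over young ND.

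Within the batches the same comparisons rested on still fewer reads. In batch 1 the 3 young ND mice had 0 reads of Cd3g, Trbc2, Nkg7 and Ccl5, against 25, 22, 9 and 107 reads in the 2 old ND mice and 29, 36, 39 and 114 in the 3 old HFD mice. In batch 2 the 3 young ND mice had 5, 7, 6 and 9 reads of the same genes, against 24, 15, 35 and 103 in the 4 old ND mice and 74, 31, 23 and 130 in the 3 old HFD mice. For old ND over young ND, 1 of 5 members that passed the filter was called in batch 1 alone, beside 0.687% of all tested genes, and 0 of 6 in batch 2 alone, beside 0.014%. Between old HFD and young ND these counts were 2 (6.79% of all tested genes) and 1 (4.33%). For Cd8a the fitted log2 fold change of old ND over young ND was 5.06 in batch 1 and 4.63 in batch 2, neither past the threshold. Without old ND replicate 4 and old HFD replicate 2, a choice made after the data were seen, 3 and 5 members were called in these comparisons, beside 6.08% and 30.2% of all tested genes.

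Other genes of the T cell receptor complex and its signalling were uneven in level, and most were sparse. The highest group means of Zap70 (9.88 CPM, old HFD), Themis (8.03, young HFD) and Lcp2 (6.24, old ND) were above those of all members. Among the members the highest was 3.18 CPM (Ccl5, old HFD). Of 21 listed genes 6 passed the filter. Of these, edgeR called 1 higher in old ND over young ND, 1 in young HFD over young ND, 0 in old HFD over young HFD (1 at an unadjusted p under 0.05), 1 in old HFD over old ND and 5 in old HFD over young ND, with none called lower in any. DESeq2 called 6, 2, 1, 1 and 13 of the 21 in the same order, the last beside 27.2% of all genes it tested. It tested more genes than edgeR in each of these comparisons except old HFD over old ND (13489 genes). The called gene between old ND and young ND was Lcp2, an adaptor below the receptor, with 0.643 ± 0.459 CPM in young ND and 6.24 ± 7.01 in old ND (log2 fold change 3.05, SE 0.73, adjusted p = 0.0109, edgeR). Icos, Lck and Lat had log2 fold changes of 2.93, 2.67 and 2.27 in the same comparison, with adjusted p of 0.0873, 0.121 and 0.131. Zap70, the kinase that binds the CD3 chains, had reads in every mouse, with 6.07 ± 1.15 CPM in young ND and 7.80 ± 2.23 in old ND. Its log2 fold change was 0.38 (SE 0.21, adjusted p = 0.299, edgeR). Themis, a regulator of T cell selection, had 0.67 (adjusted p = 0.401) in that comparison and was the gene called in both diet comparisons. Young mice had 0.70 ± 0.366 CPM on ND and 8.03 ± 3.51 on HFD, and old mice had 1.08 ± 0.582 on ND and 3.97 ± 2.30 on HFD. The log2 fold change was 3.46 (SE 0.44, adjusted p = 9.23e-05, edgeR) for young HFD over young ND and 1.72 (SE 0.43, adjusted p = 0.0307, edgeR) for old HFD over old ND, and the interaction was not called (adjusted p = 0.531). In young HFD Lck had 0.371 ± 0.372 CPM, and Cd3e and Cd3g summed to 0.359 ± 0.215, well below Themis. In young ND these values were 0.0897 ± 0.0912 and 0.0876 ± 0.0963, well below Zap70. Which cells the Themis and Zap70 reads came from was not tested.

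Of 18 further genes of cytotoxic effectors and natural killer cells, 1 passed the filter. This was Klrk1, the activating receptor NKG2D, with 0.156 ± 0.190 CPM in young ND and 1.09 ± 1.10 in old ND (log2 fold change 2.78, SE 0.81, adjusted p = 0.0320, edgeR). It was also called in old HFD over young ND. DESeq2 called 5 of the 18 in old ND over young ND and 8 in old HFD over young ND. The 18 genes together had 60 reads in young ND and 209 in young HFD, against 409 in old ND mice and 433 in old mice fed HFD. Of 12 T cell transcription factors 4 were tested and 2 called higher in old ND over young ND, namely Ikzf1 (log2 fold change 3.39, adjusted p = 0.0198, edgeR) and Ets1 (1.40, adjusted p = 0.0478), whereas Tox (0.61, adjusted p = 0.249) and Tcf7 (0.44, adjusted p = 0.363) were not called, and 3 of the 4 were called higher in old HFD over young ND. Ikzf1 and Ets1 are also used by other blood and vessel cells.

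Some genes of homing and restraint were measured as well. In old ND over young ND, Il2rb, a chain of the receptors for IL-2 and IL-15, had a log2 fold change of 2.61 (adjusted p = 0.0707, edgeR), S1pr1, which guides lymphocytes out of tissues, had -0.36 (adjusted p = 0.104) and Lag3 had -0.48 as given above. None of these passed the threshold. S1pr1 had mean levels of 78.2, 59.5, 61.4 and 52.4 CPM in the same order of groups, far above the 10 lymphocyte genes. Which cells its reads came from was not tested. Of 14 listed genes 4 were tested, and 1 that is not named here was called higher in old ND over young ND. For old HFD over young ND, 2 were called higher and 1 lower.

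The ligands that draw or hold lymphocytes, such as the CXCR3 ligands and adhesion molecules, were measured more deeply than the lymphocyte genes. Of 10 listed, 8 were tested and all 8 were called higher in old ND over young ND, 5 in young HFD over young ND, 7 in old HFD over young ND, and 0 in old HFD over young HFD and in old HFD over old ND (1 of 8 at an unadjusted p under 0.05 and 1 by DESeq2 in each). Cxcl9 had 4.84 ± 0.638 CPM in young mice on ND and 16.9 ± 9.71 on HFD, and 25.2 ± 22.8 in old mice on ND and 29.3 ± 16.8 on HFD. Its log2 fold change was 2.41 (SE 0.51, adjusted p = 0.00558, edgeR) for old ND over young ND. Vcam1, the endothelial ligand of lymphocyte integrins, had 3.61 (SE 0.64, adjusted p = 0.00318). Icam1 and Il15 had 1.49 and 1.73 in that comparison, and the least certain of the 8, Cxcl10 and Cxcl11, had 1.99 and 0.84 (adjusted p = 0.0150 and 0.0436).

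Markers of other non-hepatocyte cells moved between the same groups. Of 12 Kupffer cell and macrophage markers, all tested, 12 were called higher in old ND over young ND (12 by DESeq2), 1 in young HFD over young ND (12 at an unadjusted p under 0.05, 11 by DESeq2), 11 in old HFD over young ND (12 by DESeq2) and 0 in old HFD over young HFD (3 at an unadjusted p under 0.05, 0 by DESeq2). Their summed level was 2.22 to 103 CPM in young ND and 19.2 to 259 in young HFD, against 79.1 to 1651 in old ND mice and 113 to 859 in old mice fed HFD, and no marker of the list was at 0 in any group. In young ND it was 2.22 to 5.83 in batch 1 and 57.6 to 103 in batch 2. For old ND over young ND, 5 of 5 tested B and plasma cell markers, 3 of 3 tested neutrophil markers, 1 of 3 dendritic cell markers, 5 of 8 sinusoidal endothelial markers and 7 of 8 stellate and fibroblast markers were called higher. Of cholangiocyte markers 0 of 2 were called (2 at an unadjusted p under 0.05, 0 by DESeq2), of erythroid markers 0 higher and 1 lower of 3, and of hepatocyte markers 0 of 9 (1 at an unadjusted p under 0.05, 0 by DESeq2). The B and plasma cell list summed to 7.45 to 29.6 CPM in young ND and 32.9 to 222 in old ND, with 2 of its 10 genes at 0 in young ND. The neutrophil list summed to 0.0663 to 0.953 CPM in young ND and 0.857 to 57.4 in old ND. Igkc, an immunoglobulin light chain, had a log2 fold change of 5.24 (SE 0.69, adjusted p = 0.000412, edgeR). The part of these cells in the lymphocyte result was not tested.

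The 9 members other than Cd4 summed to 0 to 0.847 CPM in young mice on ND and 0.170 to 3.45 on HFD, and 0.643 to 10.1 in old mice on ND and 3.22 to 13 on HFD. Per 1000 CPM of the Kupffer list the median over mice was 7.60 in young ND and 9.79 in young HFD, against 14.1 in old ND mice and 23.6 in old mice fed HFD. Single mice ranged from 0 to 90.9 in young ND, 3.75 to 20.8 in young HFD, 3.66 to 72.4 in old ND mice and 13.9 to 86.3 in old mice fed HFD, so that all 4 ranges overlapped. Within batch 1 the medians were 11.8, 14.5, 53.7 and 43.5, where young ND rests on 4 reads of the lymphocyte genes in 3 mice (0 to 90.9) and old ND on 2 mice (35.0 to 72.4). Within batch 2 they were 6.97, 8.38, 6.74 and 20.2. Ptprc, the leukocyte gene CD45, had 0 to 2.81 CPM in young mice on ND and 0.791 to 6.78 on HFD, and 2.14 to 31.4 in old mice on ND and 1.18 to 15.7 on HFD.

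**Figure D4:**
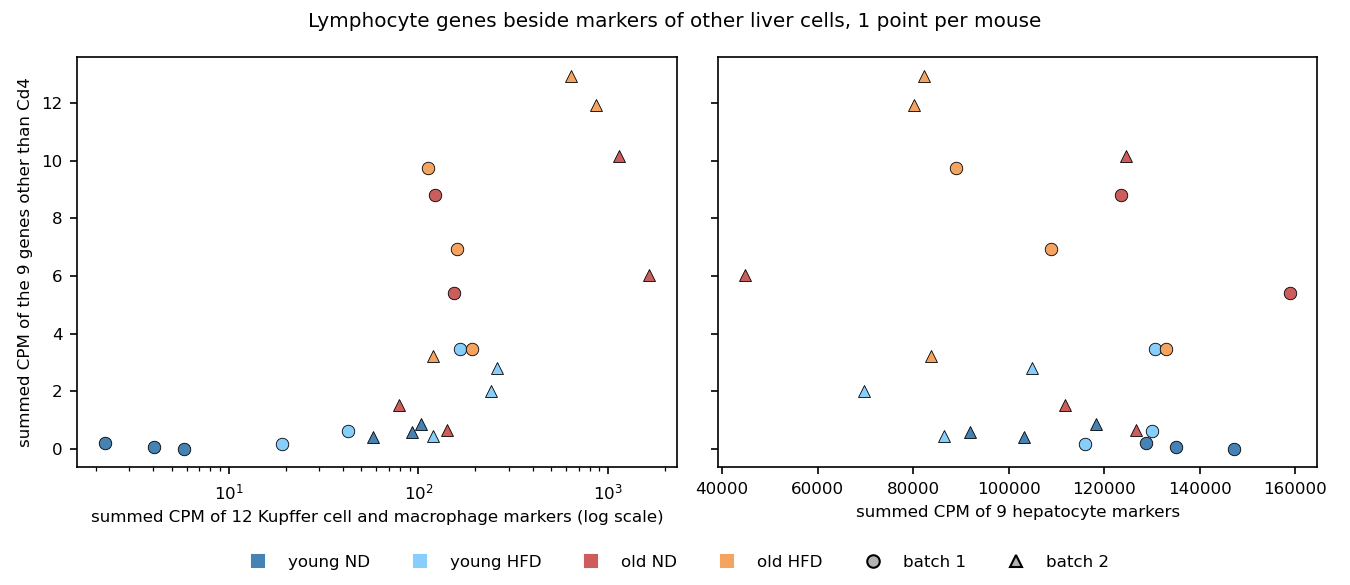
Summed CPM of the 9 genes other than Cd4 (vertical axis) against the summed CPM of 12 Kupffer cell and macrophage markers (left, log axis) and of 9 hepatocyte markers (right, linear axis), 1 point per mouse, coloured by group and shaped by batch. The 5 mice with the lowest Kupffer sums, 2.22 to 42.8 CPM, are all young mice of batch 1 and have 0 to 0.620 CPM of the lymphocyte genes. Mice with Kupffer sums from 79.1 to 191 CPM range from 0.448 to 9.76, and the 3 mice with the highest, 859 to 1651 CPM, have 6.05 to 11.9.

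Across the 24 mice, after removal of batch means from log2 CPM, the members other than Cd4 had a median Pearson correlation with the other 9 members of between 0.42 and 0.64, and Cd4 of 0.08. The highest correlation of Cd4 with any member was 0.43, with Cd8b1. After group means were removed as well, the medians were 0.34 to 0.54 for the other genes and 0.11 for Cd4. These are descriptions over 24 libraries that share depth and preparation, and for genes with counts near 0 they carry little weight.

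Among 13575 tested genes outside the members (2 tested genes that repeat a symbol were left out), those most like the mean standardised level of the 10 over the 24 mice were Spn, Ms4a4b, Dram1, Lpl, B4galt6, Hk3, Cxcl9, Fgl2, Ms4a7 and H2-Ab1, with Pearson correlations from 0.92 down to 0.88 (batch means removed). Spn (CD43) is a surface protein of T cells and other leukocytes and had 0.0425 ± 0.0808 CPM in young ND and 0.347 ± 0.430 in young HFD, against 1.0 ± 0.832 in old ND mice and 0.908 ± 0.515 in old mice fed HFD. Ms4a4b is a gene of T and natural killer cells and had 0.0488 ± 0.0761, 0.254 ± 0.228, 0.675 ± 0.445 and 0.721 ± 0.446 CPM. H2-Ab1, an MHC class II chain of antigen-presenting cells, had 2.11 ± 1.88, 11.4 ± 9.33, 31.8 ± 27.9 and 34.2 ± 32.3 CPM. Of the 10 genes only Cxcl9 is on one of the lists used here, that of the ligands. With group means removed as well, Dram1 had the highest correlation of the 10 (0.94), above Ms4a4b (0.88) and Spn (0.86). The ranking is thus not a list of T cell genes, and which cells these genes came from was not tested.

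The promoter letters of the members are given as a description, and whether they bear on the levels was not tested. RefSeq windows of GRCm38.p6 were held for 6 of the 10 genes (Cd3e, Cd3g, Cd8a, Gzma, Gzmk and Nkg7), and the 250 bases before the start of each were searched on both strands. The T-box letters AGGTGT were in 5 of the 6 windows, all but that of Cd8a, and in 11.8% of 32851 windows of the same length. The RUNX letters TGTGGT were in 2 (Gzma and Nkg7) and in 14% of all windows, the ETS letters AGGAAG in 2 (Cd3e and Nkg7) and in 29.5%, and the GATA letters AGATAA in 1 (Cd3g) and in 9.99%. In all, 3 windows are shown from 5′ to 3′ on the strand of the gene, with matches on either strand in capitals: Cd3g with a T-box and a GATA match, Gzma with a T-box and a RUNX match, and Cd8a with none of the 4.
Cd3g, chr9:44980432-44980681, minus strand: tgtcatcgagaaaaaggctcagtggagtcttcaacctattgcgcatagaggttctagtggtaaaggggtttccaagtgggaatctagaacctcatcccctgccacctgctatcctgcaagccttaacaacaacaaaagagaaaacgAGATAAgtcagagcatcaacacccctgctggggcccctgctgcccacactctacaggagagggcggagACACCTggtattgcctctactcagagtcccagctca
Gzma, chr13:113100982-113101231, minus strand: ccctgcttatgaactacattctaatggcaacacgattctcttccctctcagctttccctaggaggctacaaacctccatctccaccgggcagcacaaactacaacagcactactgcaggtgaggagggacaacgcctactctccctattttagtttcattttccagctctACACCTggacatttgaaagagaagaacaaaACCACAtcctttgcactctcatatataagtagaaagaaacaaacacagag
Cd8a, chr6:71373177-71373426, plus strand: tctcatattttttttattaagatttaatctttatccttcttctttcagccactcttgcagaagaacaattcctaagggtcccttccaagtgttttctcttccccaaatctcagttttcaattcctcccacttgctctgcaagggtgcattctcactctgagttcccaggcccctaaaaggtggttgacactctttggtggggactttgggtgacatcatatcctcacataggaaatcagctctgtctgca
In these 3 windows 0 bases overlap annotated exons. A match is a description of the letters and says nothing of whether a factor was bound.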

How the data were processed

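RNA-seq data of hepatocyte preparations from 24 mice were used, 6 in each of 4 groups. The labels gave the group, the batch and the number of each mouse. The authors aligned reads with STAR 2.7.3a in 2 passes to mm10 (Gencode annotation) and deposited whole-number read counts per gene from HTSeq 0.11.2, without normalization. They also deposited FPKM values, made with CuffLinks and adjusted between batches with ComBat, a step known from the table's name only. Strand and duplicate handling are not given in the sources used here. FastQC 0.11.8 is named in the submitters' processing notes. No column of either table lacked a sample (0 such columns).

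Counts were fitted with edgeR 4.0.16 (R 4.3.3), with TMM normalization, filterByExpr by group (minimum count 10), group and batch as terms, quasi-likelihood F tests and Benjamini-Hochberg adjustment over 13583 genes at 0.05. CPM are counts per effective library size. Intervals of 95% are 1.96 SE to each side. Totals of 9200332 to 22185069 reads per mouse limit the precision of genes with few reads, and without molecular identifiers counting intervals and floors (3 counts, 95% exact intervals) cover counting error only. The test was checked on simulated counts with known changes. Positions and exon lengths are from GENCODE M21 on GRCm38, which is mm10, whereas the counts rest on another Gencode release. Promoter windows are RefSeq sequences. Protein sequences were not used here.

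The labels and the study's methods differ on ages, substrain and the ND, and the labels are followed here. The members and the 14 other gene lists were written by hand, with earlier results of these data known. Named were all 10 members, from each other list up to 4 genes with the smallest and 2 with the largest adjusted p in old ND over young ND, and the 10 genes most like the members. A gene of the homing list is not reported here. The list count of hepatocyte markers is 9, since 1 symbol was not matched. Alternatives were no count filter, RLE normalization, DESeq2 1.42.0 with and without batch, no batch term, the replicate number as a block, the mice of 2 groups only, each batch alone, limma 3.58.1 on log2(FPKM + 1) and on log2(FPKM + 0.1), leaving out each mouse, and leaving out 2 mice. The last, count ratios without each library, and the 2 groups with the genes of the filter over all mice were chosen after the data were seen. The replicates are separate mice by the labels, and no libraries of a group agreed within sampling noise (smallest chi-square per degree of freedom 14.5). Figures used Python 3.11.15 with pandas 2.3.3, numpy 2.4.6, scipy 1.17.1 and matplotlib 3.10.9.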

Additional observations from a re-analysis of the deposited data

Results flagged for a closer look

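In a group of 6 mice a value was marked where its gap to the nearest mouse, divided by the range of the group, was above 0.625. Of 28 combinations of a member and a group with at least 10 reads, 4 were marked. This limit marks about 1 in 20 groups of normally distributed values by chance, and the rate for counts with many values at 0 was not computed. Cd8b1 in old HFD replicate 6 was at 1.08 CPM (15 reads), with the next mouse at 0.215. Gzma in young HFD replicate 5 was at 0.424 CPM (7 reads), with the next mouse at 0.115. Gzma in old ND replicate 3 was at 0.706 CPM (13 reads), with the next mouse at 0.211. Nkg7 in old HFD replicate 2 was at 1.92 CPM (25 reads), with the next mouse at 0.869. The cause of these values was not tested.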

How the results depend on the processing

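For old ND over young ND, 3 of 6 tested members were called, against 5 of 10 without the low-count filter, 1 of 5 in batch 1 alone, 0 of 6 in batch 2 alone and 0 of 10 in limma on log2(FPKM + 1) or log2(FPKM + 0.1). Of all tested genes 8.5% were called in the reported fit, and in these settings 6.35%, 0.687%, 0.014%, 0.107% and 0.316%, in this order. With the mice of the 2 groups only, the filter applied to them let just 1 member pass, Cd4, and 0 were called. When those mice were fitted with the genes of the filter over all mice, a choice made after the data were seen, 3 of 6 were called, again Cd3g, Cd8a and Ccl5, beside 13% of all tested genes. Leaving out 1 mouse gave 2 to 4 members, beside 586 to 1592 genes in all. For old HFD over young HFD the count of 0 (2.24% of all tested genes) became 3 without the filter (3.82%) and 2 in DESeq2 with or without batch (5.14% and 3.46%), and leaving out 1 mouse gave 0 to 2, beside 40 to 813 genes in all, with calls of Cd3g, Cd8a or Ccl5 without young HFD replicate 1, old ND replicate 1 or 5, or old HFD replicate 3 or 5. For young HFD over young ND the count of 0 (3.5% of all tested genes) became 1 without the filter (Ccl5, 4.56%) and 1 with the mice of the 2 groups only and the genes of the filter over all mice (Cd3g, 18.2%). For old HFD over young ND, 5 of 6 were called, against 2 of 5 in batch 1 alone and 1 of 6 in batch 2 alone (6.79% and 4.33% of all tested genes, against 30.2%), and 5 in every fit that left out 1 mouse. With the mice of the 2 groups only, 2 members passed the filter and 1 of them was called (Ccl5), beside 17.4% of all tested genes, and with the genes of the filter over all mice 5 of 6 were called, beside 19%. Batch-alone fits have fewer mice, the fits of 2 groups with their own filter tested fewer members, and the cause of the other changes was not tested.

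Of 418 other values of member log2 fold changes 18 turned their direction, all of values that were not called, and of 864 that left out 1 mouse 15 did. When the mouse number served as a replicate block and batch was dropped, Cd4 in old ND over young ND went from 0.03 to -0.0473. In limma on log2(FPKM + 1) that value was -0.00051, and on log2(FPKM + 0.1) it was -0.0396. In batch 1 alone, old HFD over old ND was -0.26 for Cd3g, -0.15 for Cd8a and -0.39 for Ccl5. In batch 2 alone, Cd8a in young HFD over young ND was -1.70, Cd4 in old HFD over young ND was 0.15, and the interaction was 0.12 for Cd3g and 2.22 for Cd8a. The interaction in limma on log2(FPKM + 1) was 0.0714 for Cd3g, 0.0275 for Cd8a, 0.0172 for Ccl5 and 0.10 for Trbc2, and on log2(FPKM + 0.1) it was 0.35, 0.19 and 0.36 for Cd3g, Cd8a and Trbc2. Without the 2 mice that stood apart, Cd8a in old HFD over old ND was -0.27. Leaving out 1 mouse gave -0.69 to 0.40 for Cd4 in old ND over young ND, -1.02 to 0.17 for Cd4 in old HFD over old ND, -0.14 to 1.70 for Cd8a in old HFD over old ND, -1.70 to 2.27 for Cd8a in young HFD over young ND, and for the interaction -2.07 to 1.97 for Cd8a and -1.10 to 0.21 for Trbc2.

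Same-numbered mice of different groups deviated together in part: over 36 pairs the correlation of deviations ran from -0.32 to 0.55 (mean 0.18), with 21 above 0.1, and the pairs of replicate 2 lay between 0.257 and 0.525. Within a batch the mean was 0.224 for pairs of the same number and 0.224 for pairs of different numbers, and the same number correlated best in 20 of 72 combinations of a mouse and another group. Not every pair was above 0.1, so the numbers were not taken as pairing the mice, and the block changed no other direction. It called the same number of members, 3 in old ND over young ND and 5 in old HFD over young ND, beside 9.94% and 25.6% of all tested genes. RLE normalization moved the median of all genes by less than 0.1. Over all genes the calls of old ND over young ND (1155) ranged from 2 in batch 2 alone to 2053 without the filter, those of old HFD over young HFD (304) from 0 to 1235, those of young HFD over young ND (475) from 9 to 2474, those of old HFD over old ND (409) from 14 to 1108, those of old HFD over young ND (4100) from 617 to 5008, and those of the interaction (0) from 0 to 587. Depth limits the 4 untested members, whose groups held 0 to 29 reads each.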
